A study of Caenorhabditis elegans with 12 samples.

Results

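Ribosome footprints of 9 genes that make microRNAs or carry out their silencing were examined in Caenorhabditis elegans larvae with altered let-7. The genes were chosen by name: alg-1, alg-2, ain-1, ain-2, dcr-1, drsh-1, pash-1, nhl-2 and cgh-1. All 9 of the 9 listed genes had a row in both count tables, among the 46711 gene rows that the tables share. Ribosome profiling sequences the short mRNA pieces that translating ribosomes protect from RNase, here of about 30 nt, from whole animals at the mid-L4 larval stage, 45 h after feeding at 20 °C. The group let7_U13A (strain VT3878) had the genotype lin-41(tn1541ma480);let-7(ma432), and its control, control_for_U13A (strain DG3913), carried lin-41(tn1541), so the lin-41 allele differs inside this pair and its changes cannot be assigned to let-7 alone. The group let7_U18A (strain VT3797) carried the transgene maIs105 together with let-7(ma435), and its control, control_for_U18A (strain VT1367), carried maIs105. Each group had 3 replicates.

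let-7 is a microRNA that times the passage from larva to adult in the worm epidermis. A microRNA is cut from its nuclear precursor by Drosha with its RNA-binding partner, trimmed by Dicer in the cytoplasm and loaded onto an Argonaute protein. The Argonaute carries it to matching mRNAs and, through a GW182 protein, brings in the enzymes that shorten the poly(A) tail, remove the cap and block translation. Loss of several of these genes causes heterochronic defects in the worm, in which cells repeat or skip stage-specific fates.

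Library totals ran from 8405704 to 44950649 counts, with every let7_U13A library deeper than every control_for_U13A library and every let7_U18A library shallower than every control_for_U18A library. No replicates agreed within counting error: chi-square values between libraries of the same group were 5.47 to 36.7 times their degrees of freedom. The let-7 row held 0 counts in every library, which allows up to 0.357 CPM in the shallowest one, so the let-7 alleles could not be checked from these counts. All 47 genes in 7 lists of tissue and stage markers (muscle, intestine, neuron, epidermis, germline, sperm, molting) had counts in all 12 libraries. Levels are in CPM, footprint counts scaled to library size with TMM factors over the 12 libraries. In whole animals, fewer cells that use a gene and fewer footprints per cell cannot be told apart, and footprints do not separate mRNA amount from translation.

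Set against each other per length, the 9 genes spanned a wide range of footprint density. cgh-1, a DEAD-box RNA helicase of the DDX6 family, is found in P bodies and germ granules. Its median over the 12 libraries was 1442 CPM per kilobase of coding sequence. That placed it at rank 168 of the 11948 coding genes that passed the filter on low counts over the 12 libraries. ain-1 (30.7), nhl-2 (29.5) and ain-2 (29.4 CPM per kilobase) formed a middle group with overlapping ranges. alg-2 (16.4), dcr-1 (14.0) and alg-1 (12.1 CPM per kilobase) came next. The lowest were pash-1 (7.08) and drsh-1 (3.13 CPM per kilobase), with drsh-1 at rank 9031. Counts behind these levels ran from 64 to 433 per library for drsh-1, against 15067 to 81552 for cgh-1, so the changes of drsh-1 are the least precise of the 9.

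**Figure D1:**
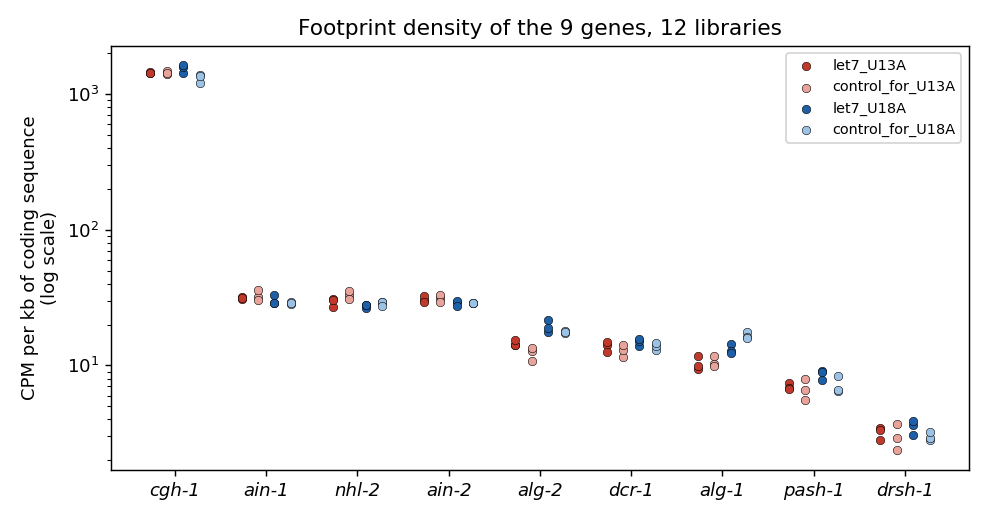
Footprint density of the 9 genes in CPM per kilobase of the longest annotated coding sequence (log axis); each point is 1 library, coloured by group, with genes ordered by their median. cgh-1 lies far above the others at a median of 1442, and drsh-1 lowest at 3.13.

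One of the 9 genes changed within a mutant and control pair. In the U13A pair (let7_U13A against control_for_U13A) 0 of 9 passed an adjusted p of 0.05 in edgeR's quasi-likelihood test, and DESeq2 called 0, where edgeR called 5.64% of the 12874 genes tested. At an unadjusted p under 0.05 there were 0 of 9, against 18.3% of all genes. In the U18A pair (let7_U18A against control_for_U18A) 1 of 9 passed, alg-1, which was lower in the mutant; 10.9% of the 13614 genes tested were called there, and 6.75% of those tested were called lower. DESeq2 also called 1 of 9. At an unadjusted p under 0.05 there were 3 of 9, namely alg-1, cgh-1 and pash-1, against 22.9% of all genes. The median log2 fold change of the 9 genes was 0.0015 in the U13A pair, where that of all genes was -0.0036, and 0.10 in the U18A pair, where that of all genes was -0.0046. CPM did not overlap between mutant and control for 2 of the 9 in the U13A pair (alg-2 higher, nhl-2 lower), against 22.7% of all genes, and for 2 of the 9 in the U18A pair (cgh-1 higher, alg-1 lower), against 27.9%. These shares of the 9 lie near those of all genes.

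**Figure D2:**
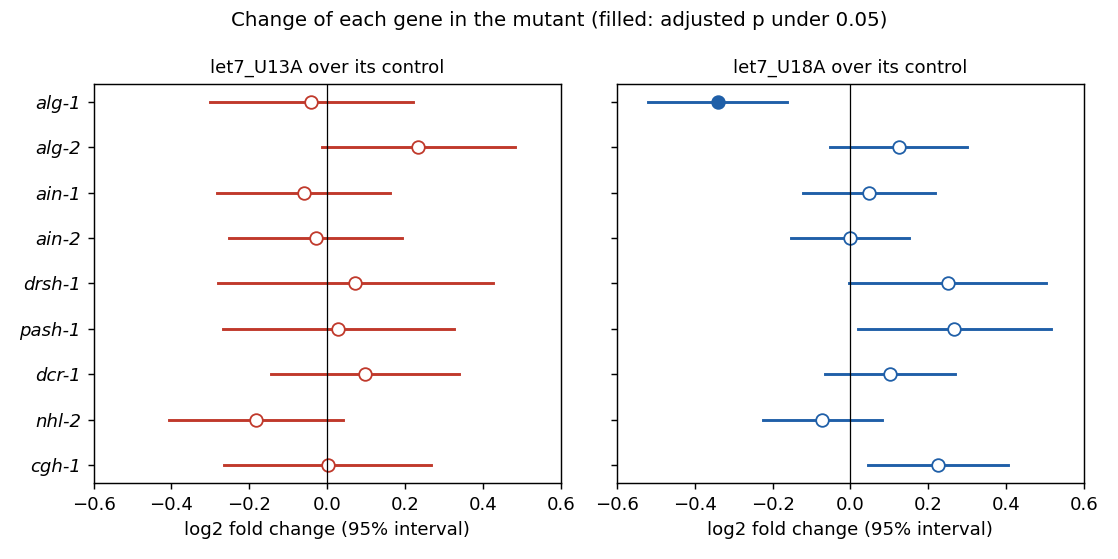
Log2 fold change of each gene in let7_U13A over its control (left) and let7_U18A over its control (right), with 95% intervals from edgeR's quasi-likelihood fit; filled points passed an adjusted p of 0.05. alg-1 in the U18A pair, at -0.34, is the single filled point.

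Of the Argonautes, which hold the mature microRNA, alg-1 fell in let7_U18A, and alg-2 did not pass the test in either pair. alg-1 (WBGene00000105) is annotated on chromosome X from 13949110 to 13956261 on the plus strand of WBcel235, with 4 transcripts and a longest coding sequence of 1023 codons in 7 exons. It had 44, 38.9 and 38.2 CPM in let7_U18A, against 54, 49.4 and 48.8 CPM in control_for_U18A. All 3 mutant libraries thus lay below all 3 control libraries. The fall amounted to a log2 fold change of -0.34 (SE 0.08, 95% interval -0.52 to -0.16, edgeR adjusted p 0.0154), a level 0.790 times that of the control. This call was lost without control_for_U18A replicate A (adjusted p 0.0571), let7_U18A replicate B (0.111) or let7_U18A replicate C (0.0559).

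alg-1 stood at 28.8, 30.6 and 35.9 CPM in let7_U13A and at 31.4, 35.8 and 30.3 CPM in control_for_U13A. These groups overlapped, with a log2 fold change of -0.041 (95% interval -0.30 to 0.22, edgeR adjusted p 0.916). The difference between its changes in the pairs was 0.30 on the log2 scale (SE 0.14, edgeR adjusted p 0.299), so the fall in the U18A pair was not shown to differ from the change in the U13A pair. alg-1 averaged 40.4 ± 3.17 CPM in let7_U18A and 50.7 ± 2.86 CPM in control_for_U18A, and 31.8 ± 3.69 CPM in let7_U13A and 32.5 ± 2.92 CPM in control_for_U13A (SD, n = 3 each). In order of level, let7_U13A and control_for_U13A were lowest with overlapping ranges, let7_U18A lay above both, and control_for_U18A lay above all, without overlap at either of these steps.

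The sums of stage and epidermal markers were lower along with alg-1 in the U18A pair, whereas the germline and intestinal sums were higher. The summed level of the 10 molting genes was 532 to 547 CPM in let7_U18A and 989 to 1454 CPM in control_for_U18A, and 9 of the 10 were called lower. The summed level of the 4 epidermal genes was 72.7 to 79.1 CPM in let7_U18A and 128 to 169 CPM in control_for_U18A, with 2 of the 4 called lower. The germline sum was 2328 to 2430 CPM in let7_U18A and 2048 to 2197 CPM in control_for_U18A, with 3 of the 10 called higher. The intestinal sum was 2404 to 2701 CPM in let7_U18A and 2118 to 2336 CPM in control_for_U18A, with 0 of the 4 called. The sums of muscle, neuron and sperm markers overlapped. The part of these markers in the alg-1 result was not tested. In the U13A pair, where alg-1 overlapped, the molting sum was 347 to 539 CPM in the mutant and 246 to 318 CPM in the control, higher without overlap. The epidermal sum overlapped there, at 55.0 to 78.8 CPM in the mutant and 55.6 to 77.6 CPM in the control.

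alg-2 (WBGene00000106), on chromosome II from 873212 to 879885 on the plus strand with 910 codons in its longest coding sequence, had 38.7, 38.5 and 42.1 CPM in let7_U13A, against 35.0, 36.5 and 29.4 CPM in control_for_U13A. Every mutant library was above every control library, yet the log2 fold change of 0.23 (95% interval -0.014 to 0.48) did not pass the test (edgeR adjusted p 0.310). alg-2 stood at 58.6, 48.5 and 51.6 CPM in let7_U18A and at 47.7, 48.7 and 48.0 CPM in control_for_U18A. The mutant value of 48.5 lay inside the control range, and the log2 fold change was 0.12 (95% interval -0.051 to 0.30, edgeR adjusted p 0.420). Leaving out 1 library gave 0.15 to 0.30 for U13A and 0.058 to 0.19 for U18A.

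Within each library, alg-1 held a smaller share of the paralogs' footprints in both mutants than in their controls. Of the footprints per coding base of alg-1 and alg-2 together, alg-1 held 41.5% ± 1.66 in let7_U13A and 46.3% ± 1.74 in control_for_U13A (SD, n = 3 each). Its share was 40.5% ± 1.04 in let7_U18A and 48.4% ± 1.58 in control_for_U18A (SD, n = 3 each). The shares of mutant and control did not overlap in either pair: the highest mutant values were 43.1% and 41.7%, and the lowest control values 44.4% and 47.4%. An exact two-sided permutation test gave p = 0.1 in each pair, the smallest that 3 libraries against 3 allow, so this design could not reach 0.05. The ratio does not depend on library scaling. How often the ratios of other genes fail to overlap was not tested, so the shift is not shown to be particular to these paralogs. The ratio of dcr-1 to drsh-1 per coding base did not overlap for U18A (4.05 to 4.54 in let7_U18A, 4.58 to 4.71 in control_for_U18A). It overlapped for U13A (4.11 to 4.46 in let7_U13A, 3.83 to 4.88 in control_for_U13A). The ratios of ain-1 to ain-2 and of drsh-1 to pash-1 overlapped both times.

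The summed level of alg-1 and alg-2 overlapped between mutant and control in both pairs, at 67.5 to 78.0 CPM in let7_U13A and 59.7 to 72.4 CPM in control_for_U13A, and at 87.4 to 103 CPM in let7_U18A and 96.7 to 102 CPM in control_for_U18A. alg-1 and alg-2 are close paralogs, and how reads that match both were counted is not given in the sources used here, so part of each count could belong to the other gene. A snoRNA row, K02B9.10, that overlaps an alg-1 exon on the same strand held 0 counts in all libraries.

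**Figure D3:**
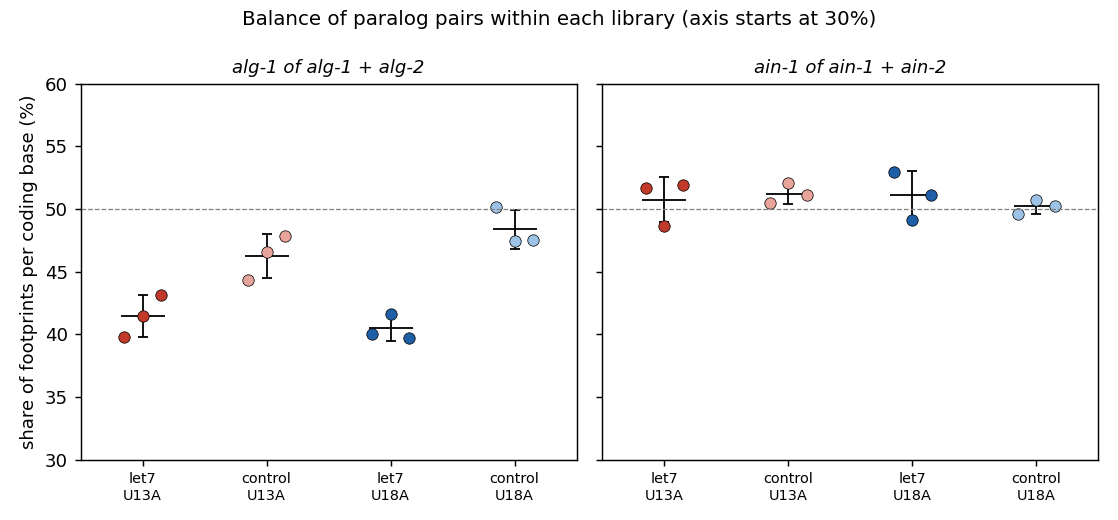
Share of alg-1 in the footprints per coding base of alg-1 and alg-2 (left) and of ain-1 in those of ain-1 and ain-2 (right), 1 point per library with mean and SD of 3 replicates; the axis starts at 30% and the dashed line marks 50%. Both mutants lie below their controls for alg-1, at 41.5% and 40.5% against 46.3% and 48.4%, and overlap them for ain-1.

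The GW182 proteins ain-1 and ain-2, which link the Argonautes to the deadenylases, showed no change past the test in either pair. ain-1 (WBGene00015547, chromosome X from 16613451 to 16616871, plus strand) had 62.0, 59.4 and 60.6 CPM in let7_U13A, against 61.3, 68.8 and 58.6 CPM in control_for_U13A, a log2 fold change of -0.061 (95% interval -0.28 to 0.16, edgeR adjusted p 0.838). It had 64.0, 55.1 and 55.7 CPM in let7_U18A, against 54.8, 56.9 and 55.9 CPM in control_for_U18A, a log2 fold change of 0.048 (95% interval -0.12 to 0.22, edgeR adjusted p 0.796). Mutant and control overlapped both times.

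ain-2 (WBGene00015007, chromosome I from 4653467 to 4660153, plus strand) had the steadiest level of the 9 genes, its highest library being 1.19 times its lowest. It stood at 67.6, 73.2 and 65.5 CPM in let7_U13A and at 70.2, 74.0 and 65.3 CPM in control_for_U13A, and at 66.3, 66.6 and 62.1 CPM in let7_U18A and 65.0, 64.5 and 64.5 CPM in control_for_U18A. Mutant and control overlapped in both pairs. The log2 fold change was -0.030 in the U13A pair (95% interval -0.25 to 0.19, edgeR adjusted p 0.929). In the U18A pair it was -0.0017 (95% interval -0.15 to 0.15, edgeR adjusted p 0.993). The share of ain-1 in the sum of ain-1 and ain-2 per coding base was 50.8% ± 1.82 in let7_U13A and 51.2% ± 0.788 in control_for_U13A, and 51.1% ± 1.93 in let7_U18A and 50.2% ± 0.574 in control_for_U18A (SD, n = 3 each). These overlapped in both pairs (exact two-sided permutation p = 0.8 for U13A and 0.6 for U18A).

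**Figure D4:**
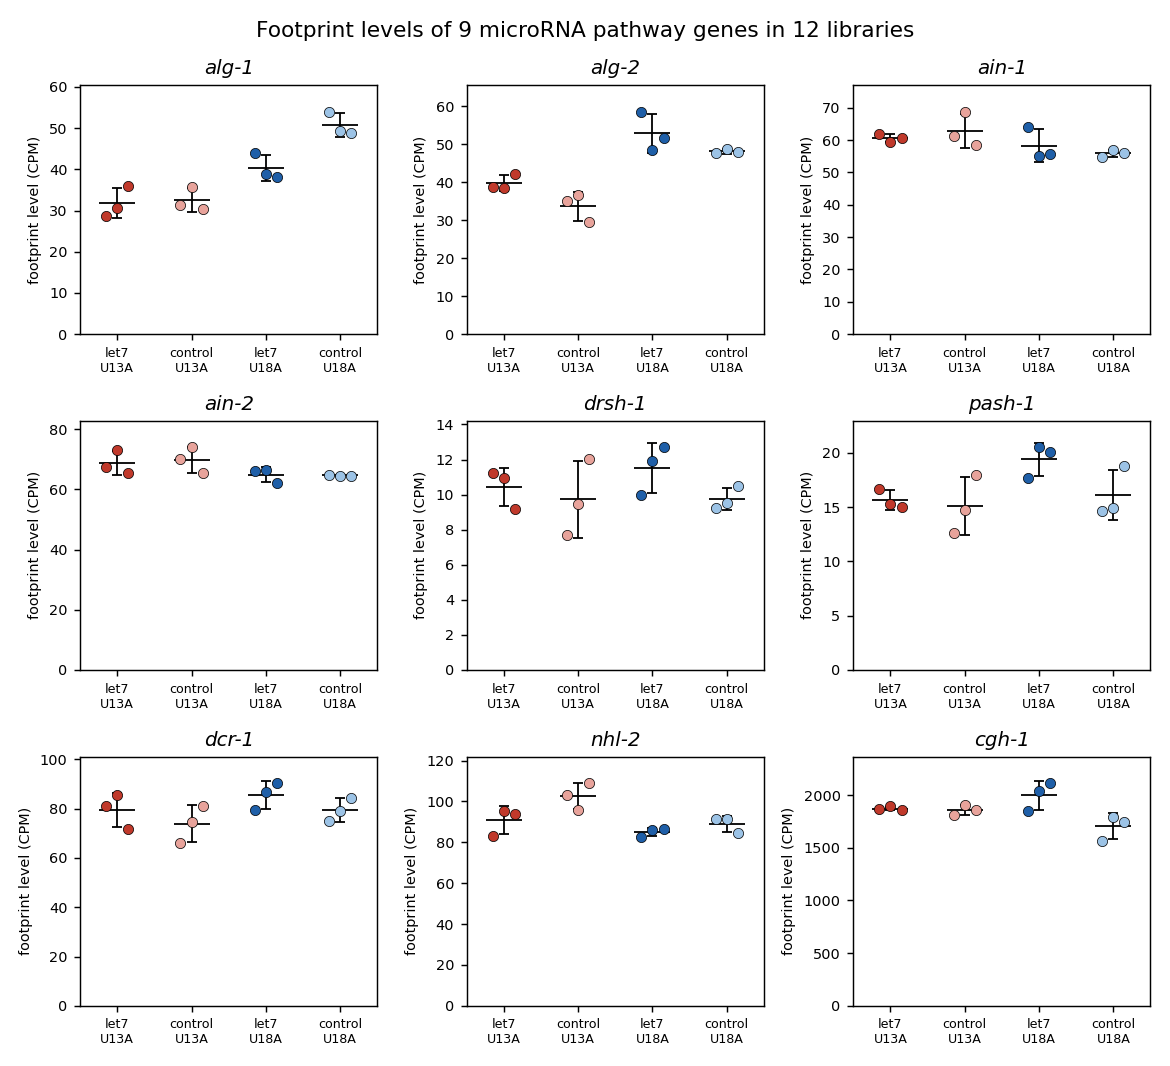
CPM of each of the 9 genes in the 12 libraries, each mutant left of its control; points are replicates A to C from left to right, and bars give mean and SD of 3. alg-1 in the U18A pair averages 40.4 in the mutant and 50.7 in its control, whereas ain-2 stays between 62.1 and 74.0 throughout.

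Among the enzymes that cut microRNA precursors, no gene passed the test in either pair. drsh-1 (Drosha, WBGene00009163, chromosome I from 9781324 to 9785724, minus strand) had 11.2, 10.9 and 9.17 CPM in let7_U13A, against 7.70, 9.48 and 12.1 CPM in control_for_U13A. It had 9.95, 11.9 and 12.7 CPM in let7_U18A, against 9.23, 9.55 and 10.5 CPM in control_for_U18A. The groups overlapped in both pairs. The log2 fold change was 0.072 for U13A (95% interval -0.28 to 0.43, edgeR adjusted p 0.887) and 0.25 for U18A (95% interval -0.0037 to 0.50, edgeR adjusted p 0.227). gpx-1 overlaps the end of drsh-1 on the other strand but shares 0 coding bases with it, and the use of strand in the counting is not given in the sources used here.

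pash-1 (WBGene00011908, chromosome I from 10598673 to 10606621, plus strand), the RNA-binding partner of Drosha, had 16.7, 15.2 and 15.1 CPM in let7_U13A, against 12.6, 14.7 and 17.9 CPM in control_for_U13A (log2 fold change 0.029, 95% interval -0.27 to 0.32, edgeR adjusted p 0.951). It had 17.6, 20.5 and 20.1 CPM in let7_U18A, against 14.7, 14.9 and 18.8 CPM in control_for_U18A. The value of 0.27 on the log2 scale there (95% interval 0.020 to 0.51) missed the threshold (edgeR adjusted p 0.178); it passed without control_for_U18A replicate C, the library at 18.8 CPM (log2 fold change 0.39, adjusted p 0.0359). Per coding base, drsh-1 stood at 0.461 ± 0.0376 of pash-1 in let7_U13A and 0.444 ± 0.0217 in control_for_U13A, and at 0.410 ± 0.0246 in let7_U18A and 0.421 ± 0.0311 in control_for_U18A (SD, n = 3 each), and its ranges overlapped between mutant and control in both pairs.

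dcr-1 (Dicer, WBGene00000939, chromosome III from 8071967 to 8080281, minus strand) is the longest of the 9, with 1910 codons in 27 exons. It had 80.9, 85.7 and 71.8 CPM in let7_U13A, against 66.0, 74.5 and 81.2 CPM in control_for_U13A, and 79.5, 86.9 and 90.3 CPM in let7_U18A, against 75.0, 79.1 and 84.4 CPM in control_for_U18A. The log2 fold changes of 0.096 (95% interval -0.15 to 0.34, edgeR adjusted p 0.741) and 0.10 (95% interval -0.066 to 0.27, edgeR adjusted p 0.504) did not pass, and the groups overlapped in each pair. Leaving out 1 library gave 0.027 to 0.17 for U13A and 0.059 to 0.16 for U18A.

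nhl-2 and cgh-1 act with the loaded Argonaute. nhl-2 (WBGene00003598, chromosome III from 4893658 to 4899085, minus strand), a TRIM-NHL protein that enhances repression by let-7 in the worm, had 83.2, 95.5 and 93.9 CPM in let7_U13A, against 103, 96.0 and 109 CPM in control_for_U13A. The highest mutant library lay just under the lowest control library. The log2 fold change was -0.18 (95% interval -0.41 to 0.042, edgeR adjusted p 0.399). In the U18A pair nhl-2 had 82.6, 86.1 and 86.5 CPM in the mutant and 91.4, 91.4 and 84.4 CPM in the control, which overlapped (log2 fold change -0.072, 95% interval -0.22 to 0.081, edgeR adjusted p 0.628).

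cgh-1 (WBGene00000479, chromosome III from 7495320 to 7497832, minus strand, 430 codons) had 1865, 1893 and 1860 CPM in let7_U13A, against 1812, 1910 and 1859 CPM in control_for_U13A, a log2 fold change of 0.0015 (95% interval -0.26 to 0.27, edgeR adjusted p 0.997). It had 1847, 2044 and 2113 CPM in let7_U18A, against 1563, 1798 and 1750 CPM in control_for_U18A. All 3 mutant libraries were above the control libraries, and the log2 fold change of 0.23 (95% interval 0.045 to 0.41) did not pass (edgeR adjusted p 0.113). Germline markers, which matter here because cgh-1 is abundant in the germline, summed to 2328 to 2430 CPM in let7_U18A and 2048 to 2197 CPM in control_for_U18A, with 3 of the 10 called higher. In the U13A pair they summed to 2406 to 2703 CPM in the mutant and 2577 to 3043 CPM in the control, also with 3 of the 10 called higher. Their part in the cgh-1 values was not tested.

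Whether the changes in the pairs differ was tested as a contrast over all 12 libraries. For 0 of the 9 genes did the difference pass in edgeR, and for 0 in DESeq2, where edgeR called 5.58% of 13597 genes. At an unadjusted p under 0.05 there were 0 of 9, against 17.2% of all genes. Besides alg-1, the largest differences were those of pash-1 (-0.24, SE 0.18, edgeR adjusted p 0.583) and cgh-1 (-0.22, SE 0.13, edgeR adjusted p 0.418), both lower in the U13A pair.

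alg-1 and alg-2 differed between the background strains themselves. Between control_for_U13A and control_for_U18A, 2 of the 9 genes were called, both lower in control_for_U13A, where 25.0% of 13597 genes were called and 13.4% were lower. Counted in both directions, the calls are no more frequent than among all genes. The 2 lower calls of 9 are a larger share than the 13.4% of all genes called lower, an excess that was not tested. alg-1 differed by -0.64 (SE 0.10, edgeR adjusted p 1.84e-04) and alg-2 by -0.52 (SE 0.10, edgeR adjusted p 8.29e-04). Both calls held under all 20 alternatives run for this comparison. CPM did not overlap for 6 of the 9, with ain-1, ain-2, nhl-2 and cgh-1 higher in control_for_U13A and alg-1 and alg-2 lower, against 41.1% of all genes. Strain, lin-41 allele and count table cannot be told apart here, and the molting genes differed as well, with 9 of 10 lower in control_for_U13A. This comparison shares its control libraries with the pairs above, so the values are set side by side only: alg-1 was -0.041 in the U13A pair, -0.34 in the U18A pair and -0.64 between the controls.

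Other genes of the pathway were taken from 6 lists of 58 genes, of which 57 had a row, 2 of them under a locus name; alg-5 was not analysed here. All 57 were tested. In the U13A pair 1 of the 57 was called, higher in the mutant, where 5.64% of all genes were called and 3.07% were called higher. In the U18A pair 5 of the 57 were called, all 5 higher, where 10.9% of all genes were called and 4.11% were called higher. Counted in both directions, neither is above the general share of calls in its pair. The 5 higher calls of 57 in the U18A pair are a larger share than the 4.11% of all genes called higher there. That excess was not tested. The 57 had a median log2 fold change of 0.033 for U13A, where all genes had -0.0036, and of 0.098 for U18A, where all genes had -0.0046. By list, the calls in the U18A pair were 3 of 15 in decapping and decay, 1 of 9 in biogenesis and turnover and 1 of 4 in the TRIM-NHL family (lin-41), with 0 of 13 in deadenylation, 0 of 8 among Argonaute partners and 0 of 8 in Dicer RNAi complexes. Of these lists, deadenylation had 2, Argonaute partners 3 and Dicer RNAi complexes 1 at an unadjusted p under 0.05 in edgeR, where 22.9% of all genes were, and DESeq2 called 0, 1 (daf-21, the Hsp90 chaperone, chosen after its values were seen) and 0 of them.

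In decapping and decay, the 3 genes called in the U18A pair were car-1, ifet-1 and edc-3. Of the 15 genes in this list, 9 had a log2 fold change above 0 there, and the lowest value was -0.25. car-1, an Sm-like protein of the same RNA granules as the cgh-1 protein, had 1664, 1606 and 1503 CPM in let7_U18A, against 1243, 1370 and 1265 CPM in control_for_U18A (log2 fold change 0.29, edgeR adjusted p 0.0227). ifet-1, the homolog of the eIF4E transporter 4E-T, had 515, 546 and 528 CPM in let7_U18A, against 399, 445 and 440 CPM in control_for_U18A (log2 fold change 0.30, edgeR adjusted p 0.0160). edc-3, an enhancer of decapping, had 86.5, 80.8 and 83.1 CPM in let7_U18A, against 66.9, 70.3 and 73.8 CPM in control_for_U18A (log2 fold change 0.24, edgeR adjusted p 0.0495). For all 3 the mutant libraries lay above the control libraries. cgh-1 itself, at 0.23, did not pass. In the same libraries the germline sum was 2328 to 2430 CPM in let7_U18A and 2048 to 2197 CPM in control_for_U18A, the molting sum 532 to 547 CPM in let7_U18A and 989 to 1454 CPM in control_for_U18A, and the epidermal sum 72.7 to 79.1 CPM in let7_U18A and 128 to 169 CPM in control_for_U18A. Their part in these 3 changes was not tested.

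These calls depended on single libraries. That of car-1 was lost without control_for_U18A replicate A or C or let7_U18A replicate A or B (adjusted p 0.0550 to 0.103), and that of ifet-1 without control_for_U18A replicate A (0.0777) or let7_U18A replicate B (0.0948). edc-3 lost its call without control_for_U18A replicate A or B or any let7_U18A replicate (adjusted p 0.0891 to 0.169), and in 5 of the other alternatives. For U13A the log2 fold changes were -0.082 for car-1, -0.019 for ifet-1 and 0.050 for edc-3, and the differences between the pairs did not pass (edgeR adjusted p 0.109, 0.165 and 0.454), although DESeq2 called that of car-1 (adjusted p 0.0261).

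pup-2, a poly(U) polymerase that acts with LIN-28 on the let-7 precursor, had 30.3, 23.4 and 26.1 CPM in let7_U18A, against 19.5, 20.5 and 18.5 CPM in control_for_U18A. Mutant and control did not overlap, and the rise of 0.43 on the log2 scale (SE 0.10, edgeR adjusted p 0.0127) was called under all 15 alternatives (highest adjusted p 0.0497). pup-2 also stood higher in all 3 libraries of let7_U13A, at 18.3, 17.9 and 16.9 CPM, against 14.7, 15.1 and 14.0 CPM in control_for_U13A. Its log2 fold change of 0.27 there did not pass (edgeR adjusted p 0.228). The difference between its changes in the pairs was -0.16 (edgeR adjusted p 0.670), so they were not shown to differ. Between the controls pup-2 was lower in control_for_U13A, by -0.42 (edgeR adjusted p 0.00749), a call lost after thinning (0.0590).

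patr-1, the homolog of the decapping activator Pat1, was the gene called in the U13A pair. It had 27.3, 25.6 and 26.9 CPM in let7_U13A, against 17.7, 20.9 and 19.5 CPM in control_for_U13A, with no overlap (log2 fold change 0.45, SE 0.11, edgeR adjusted p 0.0337). The call was lost on leaving out any 1 of the 6 libraries (adjusted p 0.0607 to 0.134) and with DESeq2 (0.0586). In the U18A pair patr-1 had 23.2, 22.1 and 23 CPM in the mutant and 24.7, 22.2 and 25.1 CPM in the control (log2 fold change -0.080, edgeR adjusted p 0.672).

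lin-41, the TRIM-NHL target of let-7, had 132, 118 and 126 CPM in let7_U18A, against 76.1, 87.2 and 94.1 CPM in control_for_U18A. The groups did not overlap, and the rise of 0.54 on the log2 scale (SE 0.08, edgeR adjusted p 7.70e-04) was called under all 15 alternatives. It had 60.1, 51.6 and 48.4 CPM in let7_U13A, against 45.3, 41.2 and 43.2 CPM in control_for_U13A, where lin-41 is itself altered in both strains (log2 fold change 0.29, edgeR adjusted p 0.165). The difference between its changes in the pairs was -0.24 (edgeR adjusted p 0.420), so they were not shown to differ. Between the controls lin-41 was lower in control_for_U13A, by -0.99 (edgeR adjusted p 1.41e-06).

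**Figure D5:**
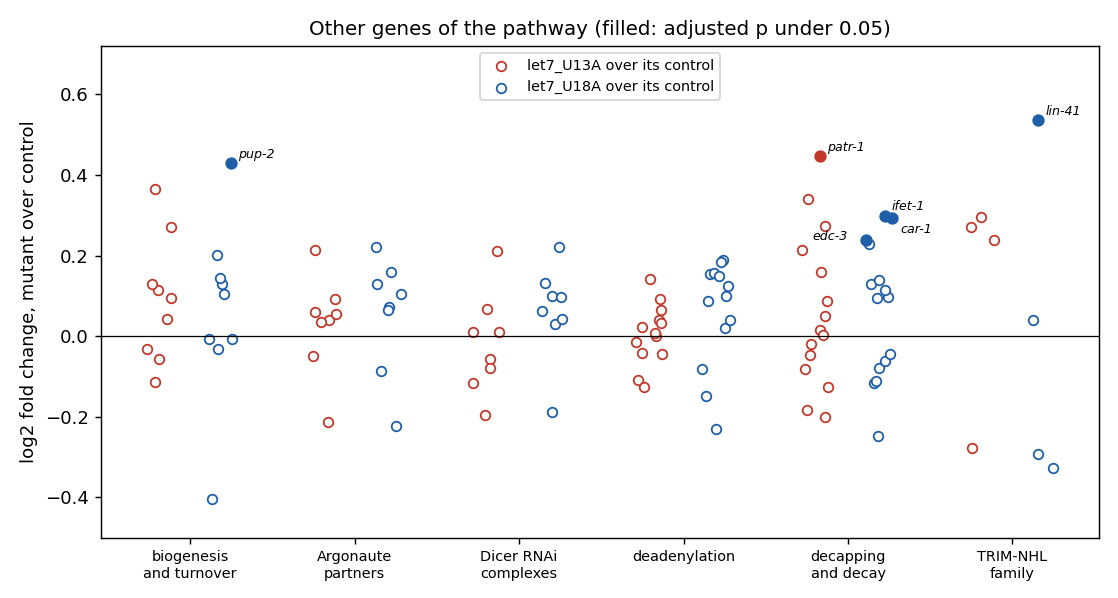
Log2 fold change, mutant over control, of 57 other pathway genes in 6 lists, with the U13A pair left of the U18A pair in each; filled and named points passed an adjusted p of 0.05. The filled points, patr-1 in the U13A pair and lin-41, pup-2, ifet-1, car-1 and edc-3 in the U18A pair, all lie above 0.

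The genes whose pattern over the 12 libraries was most like that of alg-1, by the root mean square distance of centred log2 CPM among 12820 genes, were C48B6.10 (0.088), rga-2 (0.090) and hlb-1 (0.094). alg-1 itself deviated from its own mean by a root mean square of 0.292. C48B6.10 was called lower in let7_U18A than in control_for_U18A (-0.35 on the log2 scale, edgeR adjusted p 0.00826), whereas rga-2 (-0.46, adjusted p 0.0818) and hlb-1 (-0.28, adjusted p 0.0696) did not pass. These genes were picked for their closeness to alg-1 in the same libraries. Their lower values in let7_U18A are thus no separate evidence of a shared change.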

How the data were processed

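Footprint reads of 12 libraries were deposited by the authors as raw counts per gene in 2 tables, each with a let-7 mutant and its control. The submitters' processing notes name cutadapt 1.9, Bowtie2 2.3.4.3 and the build WBcel235; the counting tool, annotation, strand and treatment of reads with several matches are not given in the sources used here. Gene positions and coding lengths come from Ensembl release 115 of WBcel235, and the longest coding sequence of a gene was used. Each pair was fitted in edgeR 4.0.16 (R 4.3.3) with filterByExpr, TMM and robust quasi-likelihood estimation, and p-values were adjusted over all genes by Benjamini-Hochberg. The difference and the control strains were contrasts of 4 group means over 12 libraries. Standard errors were derived from the F statistic. Log2 values for pattern distances used a prior count of 2.

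The members, the lists and the tests were chosen with earlier results of these data known. Named genes are the 9 members, let-7, lin-41, list genes with an adjusted p under 0.05 in the pairs or their difference (at most 10 each), and the 3 genes nearest in pattern to the called member with the largest change. On simulated counts with 200 genes changed by 1 on the log2 scale, the fits recovered 95.5% (U13A pair, 12850 genes), 94.5% (U18A pair, 13657 genes), 86.5% (difference, 13509 genes) and 92.0% (control strains, 13516 genes). False calls were 5.45%, 5.5%, 5.46% and 3.16% of the calls, in that order. Every gene was given the same spread in these counts. It was smaller than the common coefficient of variation between replicates that edgeR estimated for the U13A pair (12.5%) and for all 12 libraries (10.6%). The recovery in those fits thus comes from less noise than the data hold. The largest change of a member in a pair was 0.34 in size, so recovery of changes as small as those of the members was not tested. The labels do not say whether replicates came from separate cultures, so p-values measure the spread between these samples. Intervals for 0 counts cover counting error only. Alternatives were DESeq2 1.42.0, other scalings, other filters (none, or at least 10 counts in every library), a block for the replicate letter, estimation that was not robust, thinning to equal depth, all 12 libraries in 1 fit and leaving out each library. No sequences are shown.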

Additional observations from a re-analysis of the deposited data

Results flagged for a closer look

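The changes of 2 of the 57 pathway genes differed between the pairs in the contrast over all 12 libraries, where 5.58% of all genes tested did, so the count is no higher than the general share. The difference of ebax-1, the homolog of ZSWIM8, which acts in microRNA decay, was 0.78 on the log2 scale (SE 0.22, edgeR adjusted p 0.0417). ebax-1 stood at 9.52 ± 0.619 CPM in let7_U13A and 7.40 ± 1.22 CPM in control_for_U13A, and at 9.97 ± 1.87 CPM in let7_U18A and 13.3 ± 1.57 CPM in control_for_U18A (SD, n = 3 each). The change in neither pair passed by itself (edgeR adjusted p 0.221 for U13A and 0.0908 for U18A), although that of U18A was called with no filter, after thinning and without let7_U18A replicate C (adjusted p 0.0259 to 0.0464), and the controls differed by -0.84 (edgeR adjusted p 6.52e-04). Its call was lost without control_for_U13A replicate B, any let7_U13A replicate, control_for_U18A replicate A or B, or let7_U18A replicate A or B (adjusted p 0.0551 to 0.125).

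The difference of patr-1 was 0.53 (SE 0.13, edgeR adjusted p 0.0222), lost without control_for_U13A replicate A, let7_U13A replicate A, control_for_U18A replicate A or C, or let7_U18A replicate B (adjusted p 0.0522 to 0.0711). The controls differed there too, by -0.30 (edgeR adjusted p 0.0252), a call lost without replicate A or C of either control (adjusted p 0.0685 to 0.0903).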

How the results depend on the processing

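The members gave 630 values under the alternatives, of which 593 kept direction and side of the threshold. The alg-1 call in the U18A pair was lost in 3 and cgh-1 (replicate block) and pash-1 gained a call once each. The other 32 changed sign, and none of these was called in the main analysis. Without a library, values in the U13A pair ran from -0.14 to 0.038 for alg-1, -0.11 to 0.011 for ain-1, -0.079 to 0.016 for ain-2, -0.051 to 0.26 for drsh-1, -0.071 to 0.18 for pash-1, -0.013 to 0.023 for cgh-1 and -0.080 to 0.019 for ifet-1; in the U18A pair from -0.012 to 0.094 for ain-1 and -0.013 to 0.031 for ain-2; in the difference from -0.087 to 0.018 for ain-2, -0.077 to 0.068 for dcr-1 and -0.30 to 0.012 for drsh-1; between the controls from -0.23 to 0.044 for pash-1 and -0.17 to 0.15 for drsh-1. cgh-1 in the U13A pair was -0.0026 with upper-quartile scaling and pash-1 -0.043 after thinning. ain-2 in the U18A pair was 0.0092 with DESeq2, 0.0097 with median-of-ratios factors and 0.0058 with all 12 libraries. dcr-1 in the difference was 0.012 with no filter and 0.0033 after thinning. The cause was not tested.

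Same-letter samples did not deviate together in the U13A pair (correlations -0.028, 0.022 and -0.36) or throughout the U18A pair (0.17, -0.0025 and 0.14), so letters were not taken as pairs. With the replicate block the genes called in the U13A pair numbered 424 instead of 726, pathway genes 0 instead of 1; in the U18A pair members called were 2 instead of 1 and pathway genes 8 instead of 5; in the difference pathway genes were 0 instead of 2. Among the named genes, the calls concerned were patr-1 in the U13A pair (adjusted p 0.111), cgh-1 in the U18A pair (0.0215, a call gained), and ebax-1 (0.0722) and patr-1 (0.0599) in the difference. The pathway genes that gained a call in the U18A pair are not named here. With all 12 libraries in 1 fit 1131 genes were called in the U13A pair, and with DESeq2 0 pathway genes. Leaving out a library gave 295 to 849 genes in the U13A pair with 0 to 0 pathway genes, 917 to 1529 genes in the U18A pair with 0 to 2 members and 2 to 5 pathway genes, 0 to 2 pathway genes in the difference and 7 to 17 between the controls. Among the 9 members, depth limits drsh-1 most, at 64 counts in its shallowest library.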
